A study of Rattus norvegicus with 56 samples.

Results

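The 8 microRNAs described here mark epithelial cells and were followed through the 3 kinds of sample of a rat study of ventricular septal defect (VSD). They are miR-200a-3p, miR-200b-3p, miR-429, miR-200c-3p and miR-141-3p, which form the miR-200 family, and miR-203a-3p, miR-205 and miR-375-3p. The 8 were picked by their mature name out of 682 microRNAs in the count tables, and all 8 were listed in myocardium (661 microRNAs listed), in amniotic fluid (523) and in maternal serum (518). MicroRNAs were sequenced from Sprague-Dawley rats at embryonic day 19, with 56 samples in all and 7 in each of 8 groups. Myocardium and amniotic fluid each had 3 groups. The NC group came from dams given distilled water. The VSD and non-VSD groups came from dams gavaged with dimethadione (DMO), the active metabolite of an anticonvulsant that causes heart defects in the rat embryo, at 5 ml/kg of a 60 mg/ml solution every 12 h for 6 doses from embryonic day 8. VSD fetuses had a septal defect and normally connected great vessels. Non-VSD fetuses were exposed to the same doses but had a closed septum, so that DMO exposure is shared by both of these groups. Maternal serum was taken for an NC and a VSD group. The myocardium was a paraffin block of the fetal heart rather than sorted heart muscle cells, and the litter of each fetus is not given in the sources used here. Where samples came from one dam, the p-values below measure in part the spread between littermates.

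MicroRNAs are short RNAs that guide a silencing complex to messenger RNAs, which they recognise mainly through the seed, bases 2 to 8 from the 5′ end. The miR-200 family holds cells in an epithelial state by repressing the transcription factors ZEB1 and ZEB2, which otherwise switch off E-cadherin. During heart development the opposite change, from epithelium to mesenchyme, forms the endocardial cushions that close the septum and the epicardial cells that invade the heart wall. MiR-203 limits the renewal of stratified epithelia such as epidermis by repressing p63, miR-205 is made by the basal cells of such epithelia and also represses ZEB1 and ZEB2, and miR-375 is known from pancreatic islets and from gut and lung epithelium. Heart muscle cells are marked by other microRNAs, among them miR-1, miR-133, miR-208 and miR-499.

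The sequences show how far these 8 are separate readouts. RefSeq entries of the rat assembly GRCr8 gave a mature sequence for 5 of the 8, shown 5′ to 3′ with the seed in capitals.
miR-200c-3p: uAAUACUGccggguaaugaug
miR-141-3p: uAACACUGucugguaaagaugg
miR-203a-3p: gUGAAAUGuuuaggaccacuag
miR-205: uCCUUCAUuccaccggagucugu
miR-375-3p: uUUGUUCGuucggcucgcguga
The seeds of miR-200c-3p and miR-141-3p differ at 1 of 7 positions, and the 5 seeds are all different. As background, miR-200b and miR-429 carry the seed of miR-200c, and miR-200a carries that of miR-141, so the family addresses 2 sets of targets. The hairpins of Mir429, Mir200a and Mir200b lie within 1908 bases on the minus strand at chr5:171929682-171931589. Mir141 and Mir200c lie within 509 bases on the minus strand at chr4:159209525-159210033. Members of one cluster can be cut from one transcript. Mir203 lies outside both clusters at chr6:137020705-137020801 on the plus strand, Mir375 at chr9:83906582-83906656 and Mir205 at chr13:107564535-107564642, both on the minus strand. How reads that match more than 1 of these near-identical family members were assigned is not given in the sources used here, so that a small share of the counts of miR-200b, miR-200c and miR-429, or of miR-200a and miR-141, may belong to a relative.

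The libraries held 1694811 to 9371130 counts in myocardium, 78188 to 331787 in amniotic fluid and 147609 to 581350 in serum. Levels are given as counts per 1000000 counts (CPM), scaled by TMM, and 3 counts correspond to at most 1.77 CPM in myocardium, 38.4 CPM in amniotic fluid and 20.3 CPM in serum. Amniotic fluid and serum therefore resolve low levels less well than myocardium. The thinnest values were those of miR-141-3p, with as few as 4 counts in myocardium and 3 in serum, whereas miR-203a-3p had at least 1823 counts in amniotic fluid. The heart label of the myocardium samples was checked against 7 heart muscle microRNAs, whose summed level ran from 13309 to 244926 CPM there, from 69 to 8682 CPM in amniotic fluid and from 1806 to 16881 CPM in maternal serum, whose highest samples overlapped the lowest of myocardium. Within myocardium 3 samples stood apart with 13309 CPM (NC sample 2), 14318 CPM (VSD sample 1) and 21661 CPM (VSD sample 4), while the other 18 samples held 47452 CPM or more. The comparisons that rest on these samples are given with and without them.

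Amniotic fluid was by far the richest source of these microRNAs. In the NC group the 8 together made up 8.74 to 14.7% of all counts in amniotic fluid, 0.138 to 0.231% in maternal serum and 0.0167 to 1.75% in myocardium. MiR-203a-3p was the 3rd most abundant of all 523 microRNAs of NC amniotic fluid and miR-205 the 5th, by the median of CPM without TMM. In serum the same 2 stood at ranks 83 and 94 of 518, and in myocardium at ranks 229 and 205 of 661. The highest member in NC myocardium was miR-200b-3p, at rank 101.

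The order of the members differed between sources as well as their total. In NC myocardium the medians ran from miR-200b-3p (661 CPM) through miR-200c-3p (175), miR-200a-3p (163), miR-429 (152), miR-205 (93.0), miR-203a-3p (59.7) and miR-375-3p (19.1) to miR-141-3p (3.30), and the ranges of all neighbours in that order overlapped. In NC amniotic fluid miR-203a-3p (61501 CPM), miR-205 (35771) and miR-429 (9764) came first, with no overlap between each and the next. Below them miR-375-3p (2842), miR-200a-3p (2388), miR-200b-3p (2216), miR-141-3p (1052) and miR-200c-3p (717) overlapped with their neighbours. In NC serum the order was miR-203a-3p (527 CPM), miR-205 (425), miR-200c-3p (282), miR-375-3p (162), miR-200a-3p (87.9), miR-429 (71.3), miR-200b-3p (51.7) and miR-141-3p (42.8), again with overlap throughout.

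Expressed as shares of the summed counts of the 8 within each library, which do not depend on scaling between libraries, the miR-200 family supplied 77.8 to 94.5% of the members' counts in the 21 myocardium samples, 7.09 to 25.2% in the 21 amniotic fluid samples and 22.6 to 40.6% in the 14 serum samples. The range of myocardium did not overlap those of the fluids in any treatment group, while amniotic fluid and serum overlapped. MiR-200b-3p alone took 30.0 to 53.4% of the members' counts in myocardium and at most 6.44% in serum and 4.60% in amniotic fluid. The stratified-epithelium pair of miR-203a-3p and miR-205 took 72.8 to 89.9% in amniotic fluid, 45.0 to 72.3% in serum and 4.44 to 19.1% in myocardium, with no overlap. Within the family, miR-429 led in amniotic fluid with a median share of 8.56%, and miR-200c-3p led in serum with 15.4%. The plot of shares shows these 3 profiles.

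**Figure D1:**
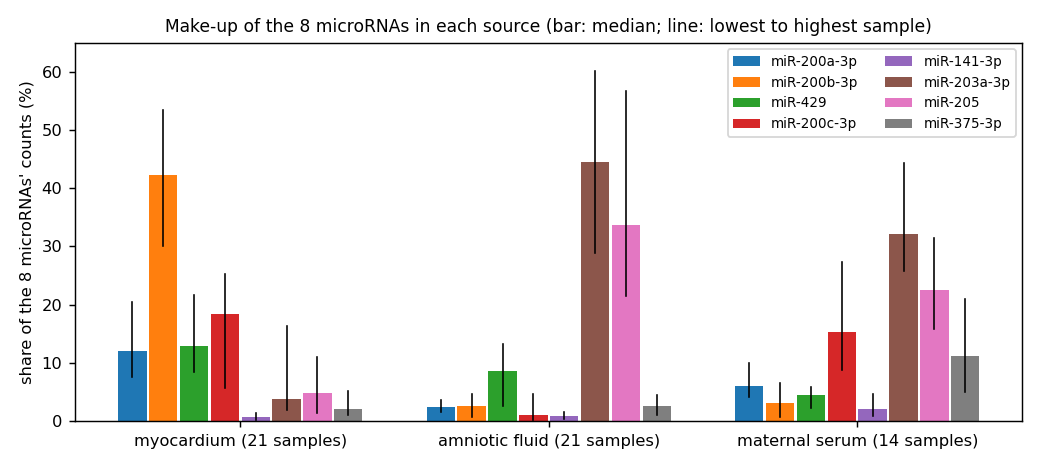
Share of the counts of the 8 microRNAs taken by each of them, in percent, in myocardium, amniotic fluid and maternal serum. Bars are medians over all samples of a source and lines run from the lowest to the highest sample. MiR-200b-3p is the tallest bar in myocardium (median 42.2%), and miR-203a-3p is the tallest in amniotic fluid (44.6%) and in serum (32.1%).

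Levels were compared between the NC samples of the 3 sources in one edgeR quasi-likelihood fit of 330 microRNAs, with p-values adjusted by the Benjamini-Hochberg method and called at an adjusted p under 0.05. Extraction kit differed between all sources, and library kit and sequencer differed between amniotic fluid and the others, so that source and protocol cannot be told apart. Against serum, 7 of 8 members were higher in amniotic fluid and 0 were lower, where 34.2% of all microRNAs tested were called higher and 41.2% lower. The differences ran from 4.301-fold for miR-375-3p (log2 2.10, SE 0.73, adjusted p = 0.0123) to 31.5-fold for miR-429 (log2 4.98, SE 0.76, adjusted p = 3.1e-06), with miR-203a-3p at 28.4-fold and miR-205 at 21.6-fold. MiR-200c-3p was the exception at 0.922-fold (95% interval 0.306 to 2.78, adjusted p = 0.895). Its sign depended on the scaling: with library size alone it was higher in amniotic fluid by 1.84 on the log2 scale. That scaling moved the median of all microRNAs in this comparison from -0.38 to 1.61, against which the members' differences can be read.

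Against myocardium, 5 of 8 members were higher in amniotic fluid and 0 were lower, where 31.5% of all microRNAs were called higher and 46.1% lower. MiR-203a-3p differed most, by 271-fold (95% interval 114 to 648, adjusted p = 2.11e-11), followed by miR-205 (92.3-fold), miR-141-3p (17.5-fold), miR-375-3p (12.8-fold) and miR-429 (9.69-fold). MiR-200a-3p (2.189-fold, adjusted p = 0.139), miR-200b-3p (0.760-fold, adjusted p = 0.58) and miR-200c-3p (0.608-fold, adjusted p = 0.394) were not called. Without NC myocardium sample 2, miR-200a-3p was called too (log2 2.69, adjusted p = 5.73e-05), and the values of miR-200b-3p and miR-200c-3p turned positive (0.40 and 0.35). Between the sources made with the same library kit and sequencer, myocardium was higher than serum for miR-200b-3p (14.8-fold, adjusted p = 4.49e-05) and miR-429 (3.25-fold, adjusted p = 0.0248). It was lower for miR-203a-3p (0.105-fold, adjusted p = 1.86e-06) and miR-205 (0.234-fold, adjusted p = 0.0143), where 42.1% of all microRNAs were called higher in myocardium and 31.8% lower. The calls of miR-429 and miR-205 did not hold under every setting. Without NC myocardium sample 2, miR-429 had an adjusted p of 0.165 while miR-141-3p (log2 -2.97, adjusted p = 0.000335) and miR-375-3p (log2 -3.19, adjusted p = 3.82e-06) were called lower in myocardium. With library size alone miR-205 had an adjusted p of 0.177.

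The other strand of some of the hairpins was counted too and gives a view of the same hairpins that the members' own counts do not. The arms of 2 hairpins of the chr5 cluster carry one seed and are shown for that reason, again with the seed in capitals.
miR-200a-5p: cAUCUUACcggacagugcugg
miR-200b-5p: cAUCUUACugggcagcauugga
In myocardium miR-200a-5p was an ample product, with 10.5 to 47.4% (median 25.9%) of the summed counts of the 2 arms of its hairpin. In amniotic fluid its median share was 1.79% and in serum 0.420%, where the highest count of the arm was 4. MiR-200b-5p went the other way: 0.364% at the median of the myocardium samples and at most 0.768% there, 5.596% in amniotic fluid and 17.0% in serum, where the highest count of the arm was 9. Within one cluster the 5p share was thus high for one hairpin and low for its neighbour in myocardium, and the order was the reverse in the fluids. MiR-141-5p had median shares of 10.9% in myocardium, 1.42% in amniotic fluid and 5.56% in serum, with at most 5 counts in a serum library, and single libraries reached 42.9%, 34.9% and 57.1%. MiR-200c-5p stayed at or below 0.426% of its hairpin in myocardium, at 0.833% or less in amniotic fluid and at 2.26% or less in serum. MiR-203a-5p never exceeded 4 counts in a myocardium library and was not listed in the fluids. Mir203 is overlapped on the opposite strand by Mir3545, the source of miR-203b-3p, which held 1 to 125 counts per myocardium sample, and reads of the 2 strands are separate only if counting used the strand.

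Within myocardium the members were among the most variable microRNAs of the tissue. The standard deviation of log2 CPM over the 21 samples ran from 1.39 for miR-203a-3p to 2.35 for miR-205, against a median of 0.64 over the 483 microRNAs tested. MiR-205, miR-200c-3p and miR-141-3p ranked 3rd, 4th and 5th of the 483. In amniotic fluid the members stood at the other end: miR-200a-3p (0.36) was the least variable of 273 microRNAs, miR-429 (0.40) was 271st, and the median over all was 1.14. In NC amniotic fluid the members ranked from 3 to 120 of 523 by median level, and scarcer microRNAs carry more counting error. The part of abundance in their low spread was not tested. In serum the members lay on both sides of the median of 0.52, between 0.40 and 0.84.

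The chr5 cluster gave the highest levels in myocardium. MiR-200b-3p ran from 108 to 5534 CPM (median 661) in NC, from 151 to 2779 (median 731) in non-VSD and from 867 to 5295 (median 1369) in VSD samples. MiR-200a-3p had 36.1 to 2510 CPM (median 163), 33.3 to 851 (median 166) and 217 to 2734 (median 655) in the same groups. MiR-429 had 27.8 to 1724 CPM (median 152), 34.3 to 854 (median 313) and 212 to 2208 (median 442). In all 3 the groups overlapped widely, and every VSD sample lay above the NC median.

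The chr4 cluster showed the same pattern at 2 very different levels. MiR-200c-3p had 14.5 to 2865 CPM (median 175) in NC, 71.1 to 1659 (median 415) in non-VSD and 441 to 3545 (median 595) in VSD samples. MiR-141-3p, from the same cluster, had 0.647 to 121 CPM (median 3.30), 2.01 to 73.0 (median 15.7) and 8.98 to 210 (median 30.7). Again all 7 VSD samples exceeded the NC median of both, and the lowest VSD samples lay inside the NC range.

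The 3 members outside the family varied with it. MiR-203a-3p had 21.2 to 338 CPM (median 59.7) in NC, 16.2 to 160 (median 74.4) in non-VSD and 52.6 to 545 (median 201) in VSD samples. MiR-205 had 3.604 to 641 CPM (median 93.0), 8.19 to 240 (median 165) and 94.5 to 805 (median 359). MiR-375-3p had 5.82 to 503 CPM (median 19.1), 5.85 to 86.9 (median 38.0) and 42.6 to 326 (median 63.6). Of the 7 VSD samples 5 lay above all non-VSD samples for miR-205, 4 for miR-203a-3p and 3 for miR-375-3p.

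The high samples were largely the same for all members. NC sample 2 was the highest of its group for 8 of 8 members, VSD samples 1, 4 and 5 were the top 3 of theirs for 8 of 8, and non-VSD samples 3 and 4 were in the top 3 of theirs for 8 of 8. Non-VSD sample 1 was the lowest of its group for all 8, and NC samples 1 and 7 were in the bottom 3 of theirs for all 8. The summed level of the members was 14234 CPM in NC sample 2 against 251 to 5211 in the other NC samples. It was 15250, 12120 and 11596 CPM in VSD samples 1, 4 and 5 against 1984 to 3265 in the other 4, and 322 to 6580 CPM in the non-VSD group.

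**Figure D2:**
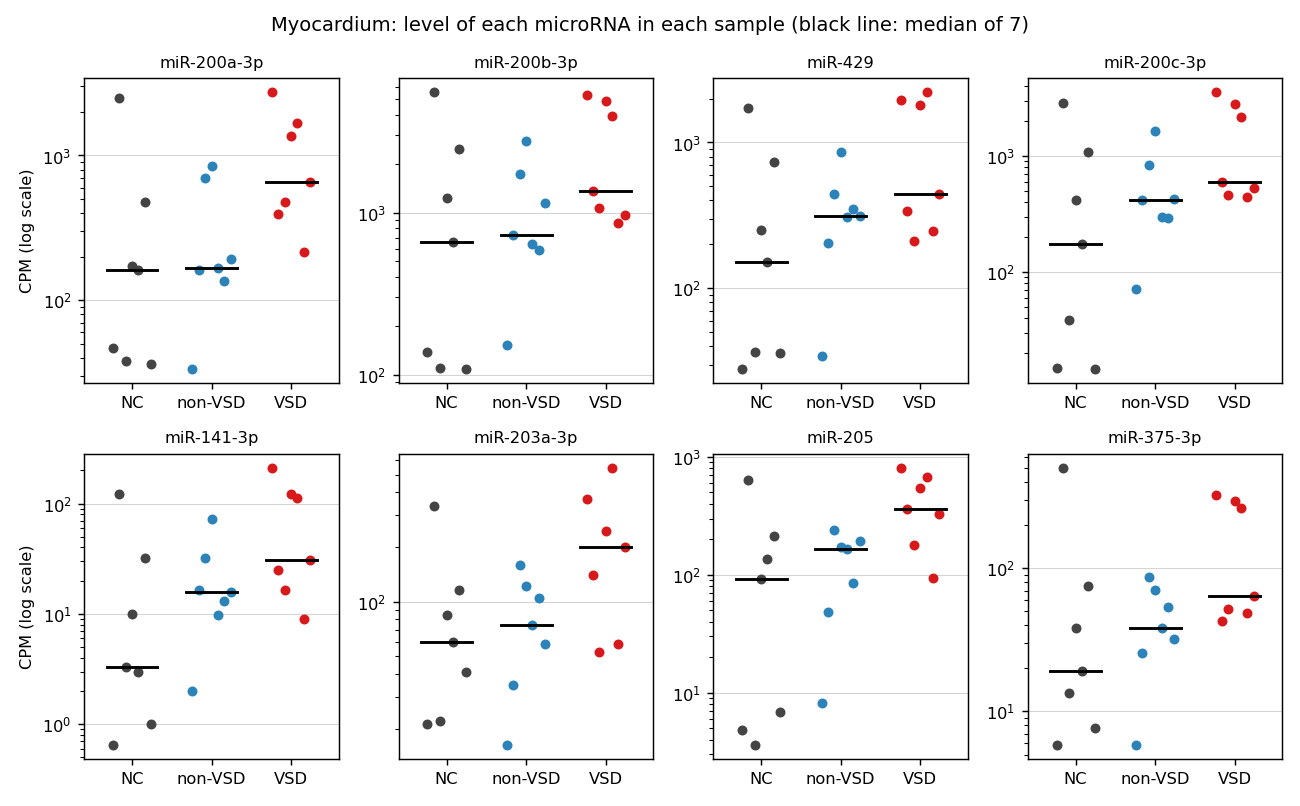
Level of each of the 8 microRNAs in each myocardium sample, in CPM on a log axis, for NC, non-VSD and VSD fetuses (7 samples each, shown left to right as replicates 1 to 7). Black lines are group medians. NC sample 2 is the highest NC sample in all 8 panels, and VSD samples 1, 4 and 5 are the highest of theirs.

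Across the 21 myocardium samples the 28 pairs of members had Spearman correlations of log2 CPM between 0.84 and 0.97 (median 0.92), where the median over all pairs of the 483 microRNAs was -0.01. Pairs of one cluster (0.89 to 0.96) and family pairs across the 2 clusters (0.92 to 0.97) covered about the same range. These samples share their tissue, their preparation and their scaling, and the values are descriptions. In amniotic fluid the same 28 pairs had correlations between -0.18 and 0.63 (median 0.39) over 21 samples, and in serum between -0.02 and 0.76 (median 0.49) over 14. The members thus kept nearly one order of samples in myocardium and did not in the fluids.

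The microRNAs outside the 8 that followed them most closely in myocardium included other epithelial ones. MiR-205 was closest to miR-449a-5p (0.95) and miR-449c-5p (0.94), both known from multiciliated cells, and miR-200a-3p to miR-449c-5p (0.95) and miR-92b-3p (0.95). MiR-200b-3p was closest to miR-200a-5p (0.93) and miR-141-5p (0.93), miR-200c-3p to miR-141-5p (0.96) and miR-200b-5p (0.95), miR-141-3p to miR-200b-5p (0.93) and miR-141-5p (0.92), and miR-429 to miR-200b-5p (0.95) and miR-200a-5p (0.93), where these neighbours are the 5p arms of hairpins of the same family. MiR-203a-3p was closest to miR-200b-5p (0.93) and miR-92b-5p (0.88), and miR-375-3p to miR-10a-3p (0.97) and miR-200b-5p (0.96).

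In amniotic fluid the nearest microRNAs were others. MiR-375-3p was closest to miR-192-5p (0.83) and miR-296-3p (0.64), and miR-200a-3p to miR-192-5p (0.55) and miR-148a-5p (0.54). MiR-192 and miR-194 are known from gut and kidney epithelium, and miR-141-3p was closest to miR-194-5p (0.65) and miR-30a-3p (0.62), miR-429 to miR-215 (0.63) and miR-98-5p (0.62). MiR-205 was closest to miR-34a-5p (0.81) and miR-99b-5p (0.74), miR-203a-3p to miR-27b-3p (0.75) and miR-125b-5p (0.65), miR-200c-3p to miR-541-5p (0.79) and miR-708-5p (0.56), and miR-200b-3p to miR-130b-5p (0.50) and miR-450a-5p (0.48).

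The samples with the most epithelial microRNA held little heart muscle microRNA. The 3 samples with the least heart muscle microRNA, NC sample 2 and VSD samples 1 and 4, were also the 3 with the most of the 8 members. VSD sample 5, with 11596 CPM of members, held 49706 CPM of the heart list. NC samples 1, 3 and 7, with 251 to 265 CPM of members, held 93446, 244926 and 145784 CPM of the heart list. In bulk tissue, fewer cells of a type and less of its RNA per cell cannot be told apart. The part of heart muscle content in the members' levels was not tested.

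**Figure D3:**
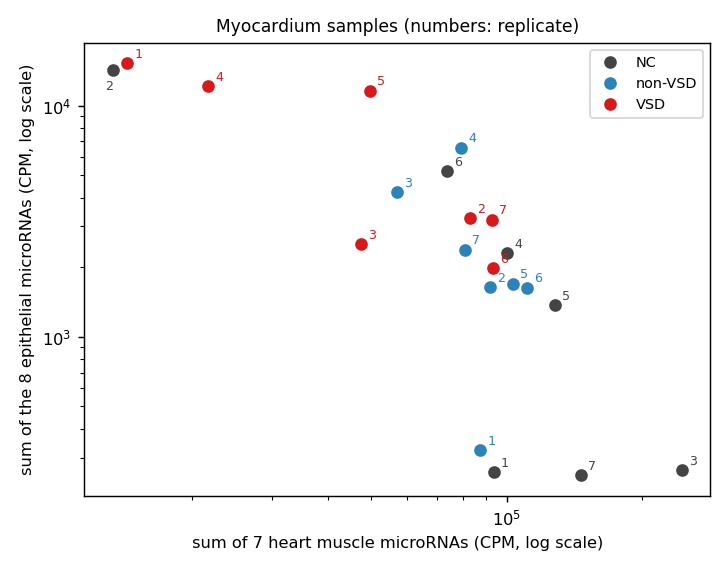
Summed level of the 8 epithelial microRNAs against the summed level of 7 heart muscle microRNAs in each of the 21 myocardium samples, both in CPM on log axes, with replicate numbers beside the points. NC sample 2 and VSD samples 1 and 4 lie at the upper left, with the lowest heart muscle sums (13309 to 21661 CPM), and NC samples 1, 3 and 7 lie at the bottom.

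Fetuses with VSD were compared with NC fetuses to ask whether these microRNAs differ in the malformed heart. All 8 members had a higher fitted level in VSD myocardium, from 1.62-fold for miR-375-3p to 2.99-fold for miR-141-3p. Of the 8, 0 were called, where 0.426% of the 469 microRNAs tested were. By the same edgeR fit 0 members had an unadjusted p under 0.05, where 90 of the 469 microRNAs had one. The intervals were wide. MiR-203a-3p, the member with the lowest p, was 2.35-fold higher (log2 1.23, SE 0.66, 95% interval 0.893 to 6.17-fold, adjusted p = 0.281). MiR-200b-3p was 1.78-fold higher (log2 0.83, SE 0.83, adjusted p = 0.582), miR-205 2.68-fold (log2 1.42, SE 0.93, adjusted p = 0.378) and miR-141-3p 2.99-fold (log2 1.58, SE 1.03, adjusted p = 0.375). For the other members the log2 differences were 1.102 (SE 0.92, adjusted p = 0.504) for miR-200a-3p, 1.18 (SE 1.01, adjusted p = 0.513) for miR-200c-3p, 1.27 (SE 0.91, adjusted p = 0.433) for miR-429 and 0.70 (SE 0.93, adjusted p = 0.701) for miR-375-3p. The study also used a threshold of an unadjusted p under 0.05 with a change of at least 2-fold. In the edgeR fit 0 of 8 members passed that threshold, against 6.82% of all microRNAs.

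The outcome rested on NC sample 2. Without it, 4 of 8 members were called higher in VSD by edgeR and 8 of 8 met the study's threshold. The 4 were miR-200a-3p (log2 2.78, SE 0.72, adjusted p = 0.0227), miR-375-3p (2.54, SE 0.69, adjusted p = 0.0263), miR-203a-3p (1.98, SE 0.56, adjusted p = 0.0313) and miR-141-3p (3.15, SE 0.92, adjusted p = 0.0326). In the same fit 77 of 474 microRNAs were called, against 2 of 469 with all samples, and 83 met the study's threshold, 47 of them higher in VSD. With NC sample 2 and VSD samples 1 and 4, the 3 lowest in heart muscle microRNAs, all left out, 0 members were called and 5 met the study's threshold, with miR-200a-3p at log2 2.17 (SE 0.70, adjusted p = 0.1) and miR-200b-3p at 1.105 (SE 0.77, adjusted p = 0.383). In that fit 7 of 472 microRNAs were called and 55 met the study's threshold, 31 of them higher. On the log2 scale, where single high samples weigh less, limma gave differences of 1.44 for miR-203a-3p to 3.02 for miR-205, with 7 members past the study's threshold and 0 called, where 46 of 469 microRNAs passed that threshold, 29 of them higher.

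Marker lists of other cells were read beside these values. All 4 red blood cell microRNAs were lower in VSD than in NC myocardium by the study's threshold (median log2 difference -2.37), with summed levels of 3435 to 25158 CPM in VSD and 2651 to 91132 CPM in NC, and NC sample 2 was the lowest NC sample. Of 7 heart muscle microRNAs 6 were lower, 1 of them (miR-1b, log2 -1.03) by the study's threshold. Of 13 other epithelial microRNAs tested, 11 were higher and 2 met the study's threshold, miR-135b-5p (log2 2.61) and miR-96-5p (1.95). Of 4 white blood cell microRNAs 2 were lower by that threshold, miR-142-5p (log2 -2.55) and miR-142-3p (-1.81), as was the skeletal muscle miR-206-3p (-2.91). In non-VSD against NC, 3 of 4 red blood cell microRNAs were also lower by that threshold: miR-144-5p (-1.98), miR-486 (-1.65) and miR-451-5p (-1.56). MiR-142-5p (-1.58) and miR-206-3p (-2.55) were lower there too, and miR-135b-5p was higher. MiR-144-3p, miR-142-3p, miR-1b and miR-96-5p did not meet it there. With both DMO groups pooled against NC, all 4 red blood cell microRNAs, miR-142-5p and miR-206-3p were called lower. The part of these shifts in the members' differences was not tested.

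In DMO-exposed fetuses with a closed septum, the sign of the difference from NC depended on the setting. All 8 fitted values were below 0, from -0.07 (SE 0.99) for miR-141-3p to -1.08 (SE 0.90) for miR-375-3p on the log2 scale, with adjusted p-values of 0.623 to 0.99. Between these lay miR-200c-3p (-0.19), miR-429 (-0.22), miR-203a-3p (-0.25), miR-205 (-0.26), miR-200b-3p (-0.37) and miR-200a-3p (-0.60). None of the 8 was called, where 0.219% of 456 microRNAs were, and 0 met the study's threshold, where 4.17% did. Without NC sample 2 all 8 values changed sign, to between 0.53 for miR-203a-3p and 1.49 for miR-141-3p, and limma with all samples also gave 8 values above 0. The group medians were likewise above those of NC for all 8 members. These data thus give no direction for non-VSD against NC.

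The direct comparison of VSD with non-VSD myocardium holds DMO exposure constant. All 8 members were again higher in VSD, from 2.37-fold for miR-200b-3p (95% interval 0.765 to 7.34) to 3.498-fold for miR-375-3p (1.02 to 12.04). None of the 8 was called, where 0% of 483 microRNAs were. The study's threshold was met by 2 members, miR-203a-3p (2.83-fold, log2 1.501, SE 0.63, adjusted p = 0.426) and miR-375-3p (log2 1.81, SE 0.86, adjusted p = 0.426). That threshold was met in the higher direction by 3.93% of all microRNAs. MiR-200a-3p (3.36-fold) and miR-205 (3.28-fold) had adjusted p-values of 0.439, and miR-141-3p was 3.24-fold, miR-429 2.87-fold and miR-200c-3p 2.65-fold higher, with adjusted p-values of 0.46 to 0.483. All 7 VSD samples lay above the non-VSD median for miR-200a-3p, miR-200b-3p, miR-200c-3p and miR-375-3p, 6 for miR-141-3p and miR-205, and 5 for miR-429 and miR-203a-3p. Without the 3 samples lowest in heart muscle microRNAs the log2 differences lay between 0.51 for miR-200c-3p and 1.29 for miR-205, and 1 member, miR-203a-3p (1.27, SE 0.59), met the study's threshold, as did 15 of 481 microRNAs.

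Of the 13 other epithelial microRNAs, 6 met the study's threshold in the same direction: miR-449c-5p (log2 2.77) and miR-449a-5p (2.39), miR-34b-5p (1.14) and miR-34c-5p (1.19), which belong to the ciliated-cell family, and miR-182 (1.34) and miR-183-5p (1.30), of the sensory and epithelial miR-183 cluster. Members of one family are not separate observations, and the list was chosen with earlier results of these data known. Against NC, the median log2 difference of the list was -0.65 in non-VSD (4 of 13 above 0) and 0.23 in VSD (11 of 13). Against NC, miR-34c-5p was lower (-1.06) and miR-135b-5p higher in non-VSD by the study's threshold, and in VSD only miR-135b-5p and miR-96-5p met it. All 7 heart muscle microRNAs had lower fitted values in VSD than in non-VSD (median log2 -0.58), and 0 of them met the threshold. Pooling both DMO groups against NC, 0 of 8 members were called, where 8.49% of 483 microRNAs were, with fitted log2 differences of -0.18 for miR-375-3p, 0.22 for miR-200b-3p, 0.25 for miR-200a-3p, 0.49 for miR-200c-3p and miR-203a-3p, 0.52 for miR-429, 0.58 for miR-205 and 0.75 for miR-141-3p.

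Amniotic fluid, which takes up material shed by fetal skin, airway, gut and kidney, gave much tighter values. MiR-203a-3p had 48962 to 75306 CPM (median 61501) in NC, 23806 to 49648 (median 31564) in non-VSD and 24535 to 81961 (median 44789) in VSD samples. Of the 7 non-VSD samples 6 were below every NC sample, and the other, sample 4, lay just above the lowest NC sample. MiR-205, which shares its epithelia, had 19454 to 46750 CPM (median 35771), 18551 to 68785 (median 22925) and 18545 to 59444 (median 40194), with full overlap of the groups.

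Among the family, miR-429 had 7666 to 10292 CPM (median 9764) in NC, 4992 to 10547 (median 7308) in non-VSD and 3772 to 9649 (median 6913) in VSD samples. None of the 7 VSD samples reached the NC median, and 6 were below every NC sample. MiR-200a-3p had 2081 to 2867 CPM in NC, 1106 to 3349 in non-VSD and 1686 to 3399 in VSD samples, and miR-200b-3p had 1791 to 3832, 1787 to 4344 and 961 to 3493. MiR-200c-3p ran the other way, with medians of 717, 1306 and 1355 CPM, and every non-VSD sample was above the NC median. MiR-141-3p, its cluster partner, had medians of 1052, 648 and 727 CPM, and no non-VSD sample was above the NC median. MiR-375-3p had 1256 to 4379 CPM in NC, 1198 to 4243 in non-VSD and 1058 to 4649 in VSD samples, with no separation.

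**Figure D4:**
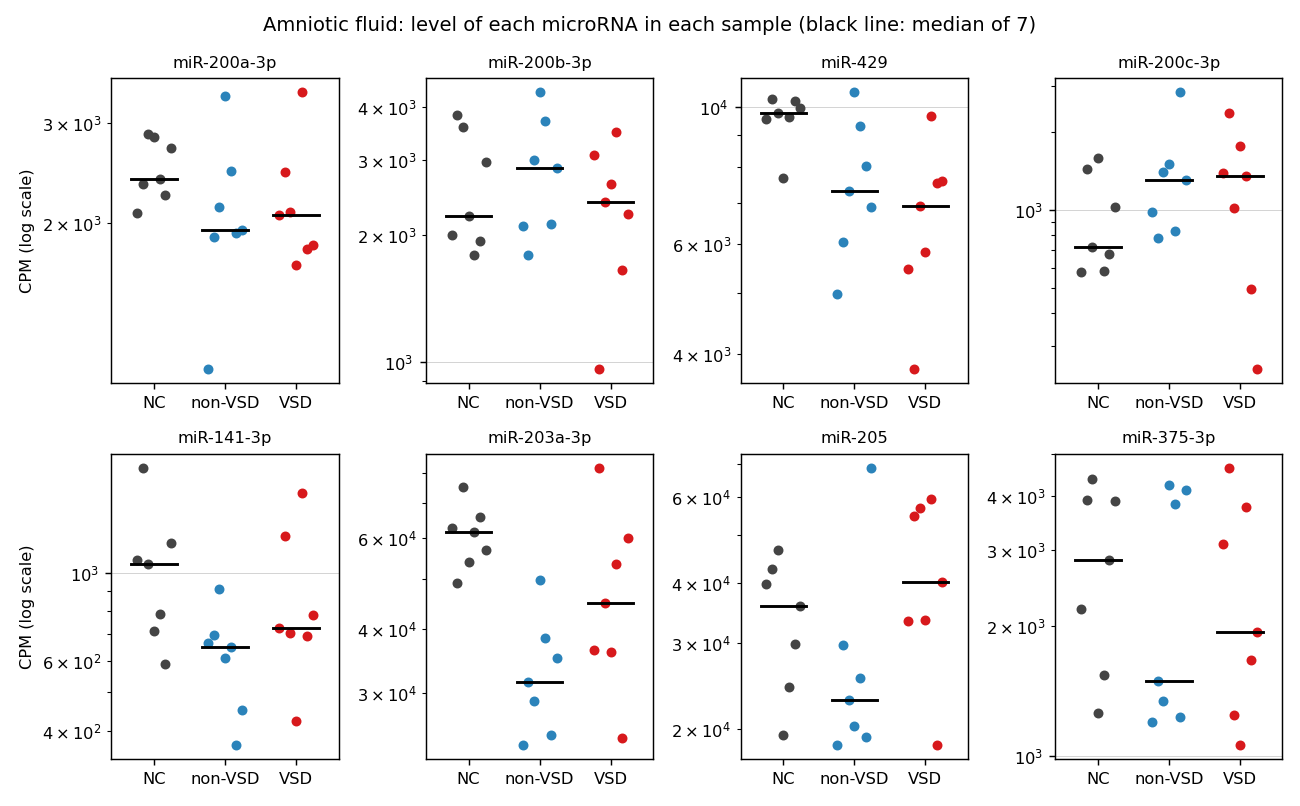
Level of each of the 8 microRNAs in each amniotic fluid sample, in CPM on a log axis, for NC, non-VSD and VSD fetuses (7 samples each, shown left to right as replicates 1 to 7). Black lines are group medians. The non-VSD samples of miR-203a-3p (23806 to 49648 CPM) lie below nearly all NC samples (48962 to 75306 CPM), and most VSD samples of miR-429 lie below the NC samples.

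In the test of non-VSD against NC amniotic fluid, miR-203a-3p was 0.582-fold (log2 -0.78, SE 0.24, 95% interval 0.410 to 0.826-fold, adjusted p = 0.0617) and missed the threshold. None of the 8 members was called by edgeR, where 4.96% of 242 microRNAs were. Its value held its size, between -0.92 and -0.71 with any sample left out, and the adjusted p was 0.0281 by DESeq2 and 0.0393 without non-VSD sample 4. MiR-141-3p was 0.638-fold (SE 0.34 on the log2 scale, adjusted p = 0.306) and miR-200c-3p 1.55-fold (SE 0.36, adjusted p = 0.344). Red blood cell microRNAs were higher in the same comparison, 2 of 4 of them called (miR-451-5p, log2 2.51, adjusted p = 0.0272, and miR-486, log2 1.20, adjusted p = 0.0272), with sums of 25425 to 86089 CPM in non-VSD against 15044 to 34791 CPM in NC. The endothelial miR-126a-3p was also called higher (log2 1.54, adjusted p = 0.0464), while the other endothelial microRNA tested, miR-126a-5p, had a fitted value below 0. As CPM is a share of the library, more of one kind of microRNA lowers the CPM of the rest, and the part of this in the value of miR-203a-3p was not tested.

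In VSD against NC amniotic fluid, miR-429 was 0.707-fold (log2 -0.50, SE 0.21, 95% interval 0.518 to 0.965-fold, adjusted p = 0.269). The unadjusted p was 0.0311, and the change was smaller than the study's 2-fold threshold. The other 7 lay between 0.809-fold for miR-203a-3p and 1.33-fold for miR-200c-3p with adjusted p-values of 0.668 to 0.838, and 0 of 8 were called, where 0% of 245 microRNAs were. Markers of other tissues met the study's threshold in the same comparison: miR-122-5p of liver (log2 2.998), miR-144-3p (2.64) and miR-486 (1.19) of red blood cells, miR-142-3p of white blood cells (2.36) and miR-1b of heart muscle (1.43) were higher, and the epithelial miR-215 (-1.04) was lower. VSD samples 3 and 4 held 8261 and 40719 CPM of miR-122-5p, but its VSD median of 889 CPM lay below the NC median of 967 CPM. Of 3 white blood cell microRNAs tested, 2 had fitted values above 0. The red blood cell sums were 18119 to 143484 CPM in VSD against 15044 to 34791 CPM in NC, and their part in the value of miR-429 was not tested. Between the DMO groups miR-203a-3p was 1.45-fold higher in VSD than in non-VSD fluid (95% interval 0.996 to 2.12, adjusted p = 0.478) and miR-205 1.45-fold (0.910 to 2.30, adjusted p = 0.712), and the other 6 lay between 0.825-fold for miR-200b-3p and 1.41-fold for miR-141-3p. None of the 8 was called, where 0% of 273 were. Against NC, both DMO groups together had 0.659-fold miR-203a-3p (log2 -0.60, SE 0.22, adjusted p = 0.157) and 0.743-fold miR-429 (log2 -0.43, SE 0.19, adjusted p = 0.255), and the other 6 lay between 0.716-fold for miR-141-3p and 1.38-fold for miR-200c-3p. Of the 14 DMO samples 13 lay below the NC median of miR-203a-3p, and likewise 13 for miR-429. None of the 8 was called, where 0.733% of 273 were. None of these 4 amniotic fluid comparisons had a member past the study's threshold. Over all microRNAs it was met by 17 of 245 in VSD against NC and 30 of 242 in non-VSD against NC. In VSD against non-VSD 9 of 273 met it, and in all DMO against NC 22 of 273.

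The intervals in amniotic fluid bounded some of the differences. For miR-200a-3p the 95% interval was 0.649 to 1.22-fold in VSD against NC and 0.620 to 1.32-fold in non-VSD against NC. For miR-205 it was 0.826 to 1.94-fold and 0.565 to 1.41-fold. MiR-375-3p was less well bounded, at 0.514 to 1.51-fold and 0.520 to 1.63-fold. For miR-200c-3p (0.718 to 2.48-fold and 0.926 to 2.595-fold) a 2-fold rise lay inside both intervals, and for miR-141-3p (0.530 to 1.39-fold and 0.392 to 1.04-fold) a 2-fold fall lay inside the second.

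In maternal serum the members were low and the groups overlapped for all 8. MiR-203a-3p had 365 to 791 CPM (median 527) in NC and 290 to 747 (median 570) in VSD serum. MiR-205 had 235 to 606 CPM (median 425) and 221 to 557 (median 301), and miR-200c-3p had 207 to 323 (median 282) and 116 to 359 (median 306). MiR-375-3p, at 97.4 to 228 CPM (median 162) in NC and 90.3 to 463 (median 226) in VSD serum, had 3 of 7 VSD samples above every NC sample. It was 1.40-fold higher in VSD (log2 0.48, SE 0.31, 95% interval 0.890 to 2.192-fold, adjusted p = 0.538).

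The remaining 4 members of the family had medians of 87.9 CPM in NC and 84.1 in VSD serum for miR-200a-3p, 71.3 and 77.2 for miR-429, 51.7 and 36.3 for miR-200b-3p, and 42.8 and 21.04 for miR-141-3p. The last of these rested on 3 to 24 counts in the VSD samples. The 7 members other than miR-375-3p had fitted values of 0.796 to 0.981-fold, and 0 of 8 were called where 0% of 219 microRNAs were. By edgeR 0 members met the study's threshold, where 10 of 219 microRNAs did. An unadjusted p under 0.05 was found for 0 members and for 30 of 219 microRNAs. DESeq2 also called 0 members in serum, where it called 4 of 219 microRNAs, and 0 in each myocardium comparison. In myocardium it called 46 of 469 microRNAs in VSD against NC and 48 of 456 in non-VSD against NC. It called 0 of 483 in VSD against non-VSD myocardium and 66 of 483 in all DMO against NC myocardium.

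**Figure D5:**
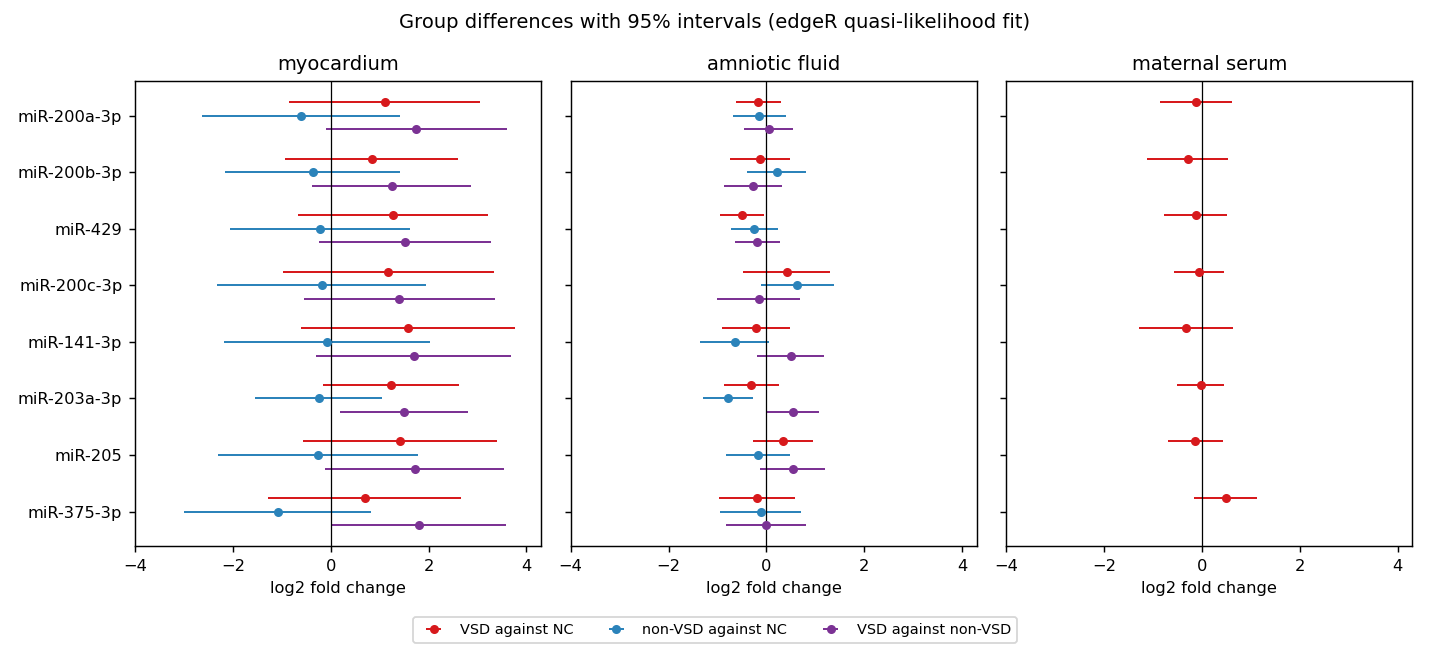
Fitted log2 fold change of each of the 8 microRNAs with its 95% interval, for VSD against NC, non-VSD against NC and VSD against non-VSD in myocardium and amniotic fluid, and for VSD against NC in maternal serum. Intervals in myocardium span up to 4.4 log2 units and those in the fluids are narrower. The intervals that exclude 0 are those of miR-203a-3p and miR-375-3p in VSD against non-VSD myocardium, of miR-429 in VSD against NC amniotic fluid and of miR-203a-3p in non-VSD against NC amniotic fluid.

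Whether the effect of a group differed between sources was tested by permuting the labels within each source, on differences of mean log2 CPM, in 32 tests. In VSD against NC all 8 members had a larger difference in myocardium than in amniotic fluid, by 1.86 for miR-203a-3p to 2.997 for miR-141-3p on the log2 scale. The lowest p was 0.018 for miR-429 (2.15 in myocardium and -0.57 in amniotic fluid), and its p adjusted over the 32 tests was 0.137. The difference between myocardium and serum was largest for miR-141-3p (3.17, permutation p = 0.0219, adjusted p = 0.137) and miR-205 (3.16, permutation p = 0.0233, adjusted p = 0.137). In all, 8 of 32 tests had an unadjusted permutation p under 0.05 and 0 an adjusted one. Between amniotic fluid and serum the 8 differences lay between -0.61 and 0.42, with permutation p-values of 0.244 to 0.876. For non-VSD against NC, myocardium and amniotic fluid differed by 0.41 to 1.89, with permutation p-values of 0.108 to 0.695. These tests rested on NC myocardium sample 2. Without it, 18 of 32 tests had an unadjusted permutation p under 0.05 and 15 an adjusted one. In VSD against NC the myocardium value was then larger than that of amniotic fluid for all members but miR-200c-3p (3.28, adjusted permutation p = 0.061) and larger than that of serum for all but miR-375-3p (2.21, adjusted permutation p = 0.0689). The differences that passed ran from 2.27 for miR-203a-3p to 3.69 for miR-141-3p against amniotic fluid, and from 1.88 for miR-203a-3p to 3.87 for miR-141-3p against serum. In non-VSD against NC, miR-141-3p passed (2.58, adjusted permutation p = 0.0414). With the 3 samples lowest in heart muscle microRNAs left out, 11 of 32 tests had an unadjusted permutation p under 0.05 and 0 an adjusted one, with miR-200a-3p lowest in p (2.68 against amniotic fluid, permutation p = 0.0088, adjusted p = 0.0928).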

How the data were processed

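Small RNA libraries of 21 myocardium, 21 amniotic fluid and 14 maternal serum samples were analysed from 5 deposited tables. The authors deposited raw read counts per mature microRNA, assigned without a stated rule for reads that match several microRNAs; per the labels, bcl2fastq 2.19 and DESeq were used, and the aligner and genome build are not given in the sources used here. Myocardium came from paraffin blocks. Myocardium and serum libraries were made with TruSeq kits and run on one type of sequencer, and amniotic fluid libraries with a QIAseq kit on another; whether molecular identifiers were used for the amniotic fluid counts is not given. The 70 columns of normalized values and the authors' comparison columns (fold changes and p-values) were not used. NC counts were identical in both tables that held them and were used once.

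Counts were fitted with edgeR 4.0.16 (quasi-likelihood, filterByExpr at its settings of 10 counts per sample and 15 in all, TMM, Benjamini-Hochberg) in R 4.3.3. VSD and non-VSD were each set against NC in a fit of the 14 samples, and the comparisons between or over both DMO groups came from a fit of 21. The NC samples of the 3 sources were fitted over the 450 microRNAs listed in all. Standard errors were taken as the size of the log2 difference divided by the square root of F, and 95% intervals from them. Group effects were compared between sources by two-sided permutation (100000 permutations, prior count 2). All 8 microRNAs were followed in every comparison, singly or by their range, members of the marker lists only where they passed a threshold or stood beside a member's result, and for each of the 8 the 2 most correlated others. The 8 and the marker lists were chosen with earlier results of these data known. Scripts were tested on simulated data.

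Alternatives were library-size scaling, DESeq2 1.42.0, no filter, a replicate block, a prior count of 0.5 for the permutation tests and leaving out each sample. After the data were seen, limma 3.58.1 on log2 CPM and the exclusion of the 3 myocardium samples lowest in heart muscle microRNAs were added, the latter also in the permutation tests together with the exclusion of NC myocardium sample 2. Nothing says which fetuses shared a dam, so p-values measure the spread between these samples. Count floors cover counting error only.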

Additional observations from a re-analysis of the deposited data

Results flagged for a closer look

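Of 64 groups of 7 samples, 12 held a sample whose gap to the next one, in CPM, was large for the group's range. Chance gives about 1 in 20 such groups where values are normal and groups are independent. Here the myocardium values were skewed and the members were correlated there (Spearman 0.84 to 0.97), so the 12 cannot be set against that rate. Of the 12, 7 were NC myocardium sample 2. It held 2510 CPM of miR-200a-3p (next highest NC sample 481), 2865 CPM of miR-200c-3p (1095), 121 CPM of miR-141-3p (31.9), 1724 CPM of miR-429 (733), 338 CPM of miR-203a-3p (115), 641 CPM of miR-205 (215) and 503 CPM of miR-375-3p (75.6). The same sample had the lowest heart muscle sum of all 21, 13309 CPM. Non-VSD myocardium sample 4 stood apart for miR-141-3p with 73.0 CPM (next 31.99).

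In the fluids NC amniotic fluid sample 4 was low for miR-429 at 7666 CPM (next lowest 9544). Non-VSD amniotic fluid sample 6 was high for miR-200c-3p at 2835 CPM (next 1508), and sample 7 of that group was high for miR-205 at 68785 CPM (next 29710). VSD serum sample 3 was high for miR-200b-3p at 113 CPM (next 53.4).

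The difference between VSD and NC was larger in myocardium than in a fluid in 8 of 32 permutation tests at an unadjusted p under 0.05, and in 0 after adjustment over the 32. Without NC myocardium sample 2 the adjusted count was 15, and without the 3 samples lowest in heart muscle microRNAs it was 0. Against amniotic fluid these were miR-200a-3p (2.53 on the log2 scale, permutation p = 0.0227), miR-141-3p (2.997, permutation p = 0.0257), miR-429 (2.72, permutation p = 0.018) and miR-203a-3p (1.86, permutation p = 0.0221), each with an adjusted p of 0.137. Against serum they were miR-200a-3p (2.45, permutation p = 0.0359, adjusted p = 0.162), miR-200c-3p (2.91, permutation p = 0.0416, adjusted p = 0.162), miR-141-3p (3.17, permutation p = 0.0219, adjusted p = 0.137) and miR-205 (3.16, permutation p = 0.0233, adjusted p = 0.137).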

How the results depend on the processing

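The myocardium comparisons depended on NC sample 2, and the members varied widely there. Amniotic fluid libraries held 78188 to 331787 counts, and in serum members had as few as 3 counts. What limited each comparison was not tested. Of 128 values with library size in place of TMM, 118 kept their direction and their side of the threshold, as did 92 of 96 with DESeq2, 93 of 96 with no filter, 79 of 96 with the replicate block, 77 of 96 with limma, 55 of 56 without the 3 samples lowest in heart muscle microRNAs and 32 of 32 with the other prior count. Library size moved the median of all microRNAs in VSD against NC myocardium from -0.05 to 0.32. Except where a sample was left out, the cause of a change was not tested.

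The members past the study's threshold in VSD against NC myocardium numbered 0, but 3 with the replicate block, 7 with limma and 5 without the 3 low-heart samples. In VSD against non-VSD they numbered 2, but 1 with library size, 5 with DESeq2, 0 with the replicate block and 1 without the 3 samples. In all DMO against NC they numbered 0, but 3 with limma and 4 without the 3 samples. Over all microRNAs the same threshold was met in VSD against NC by 32 of 469, by 31 with the replicate block, 46 with limma and 55 of 472 without the 3 samples, in VSD against non-VSD by 25 of 483, by 25 with library size, 33 with DESeq2, 14 with the block and 15 of 481 without the 3 samples, and in all DMO against NC by 23 of 483, by 26 with limma and 39 of 481 without the 3 samples. In non-VSD against NC amniotic fluid DESeq2 called 1 member and 29 of 242 microRNAs. Samples with one replicate number had correlated deviations (r over 0.1) in at most 5 of 7 pairs, which does not settle whether they were paired. No label says what the numbers stand for, so the replicate block was kept as an alternative only.

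With 1 sample left out, members called in VSD against NC myocardium ranged from 0 to 4 and members past the study's threshold from 0 to 8 (both highest without NC sample 2). In VSD against non-VSD the latter ranged from 0 (without VSD sample 5) to 4 (without NC sample 2, 3 or 7 or VSD sample 6), in all DMO against NC from 0 to 7 (without NC sample 2), and members called in non-VSD against NC amniotic fluid from 0 to 1 (without non-VSD sample 4). Over all microRNAs, without NC myocardium sample 2, 77 of 474 were called in VSD against NC and 83 met the study's threshold. That threshold was then met by 32 of 485 in VSD against non-VSD and 57 of 485 in all DMO against NC. Between sources, the adjusted permutation tests that passed numbered 15 without NC myocardium sample 2.

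In non-VSD against NC myocardium all 8 log2 differences changed sign, with the replicate block to 0.48 (miR-200a-3p), 0.51 (miR-200b-3p), 1.54 (miR-200c-3p), 1.49 (miR-141-3p), 0.95 (miR-429), 0.15 (miR-203a-3p), 0.90 (miR-205) and 0.52 (miR-375-3p), and with limma, in the same order, to 0.42, 0.56, 1.40, 1.21, 0.85, 0.095, 1.11 and 0.29. With 1 sample left out they ranged, in that order, from -1.12 to 1.08, -0.82 to 0.54, -0.78 to 0.998, -0.75 to 1.49, -0.63 to 0.83, -0.50 to 0.53, -0.49 to 0.80 and -1.33 to 0.76. In all DMO against NC myocardium miR-375-3p changed sign with the replicate block (1.24), limma (1.07) and without the 3 samples (1.30), and ranged from -0.36 to 1.75 with 1 sample left out, miR-200a-3p from -0.063 to 2.03 and miR-200b-3p from -0.055 to 1.23.

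In the fluids, values near 0 changed sign. In VSD against non-VSD amniotic fluid these were miR-200a-3p (-0.041 with library size, -0.090 to 0.20 with 1 sample left out), miR-375-3p (0.032 with limma, -0.24 to 0.17) and miR-200c-3p (-0.40 to 0.12). In all DMO against NC they were miR-200b-3p (0.12 with DESeq2, -0.090 to 0.11) and miR-205 (-0.014 with the replicate block, -0.019 with limma, -0.12 to 0.16), in non-VSD against NC miR-375-3p (-0.29 to 0.053), and in serum miR-200c-3p (0.018 with library size), miR-203a-3p (0.075 with library size, -0.16 to 0.11) and miR-200a-3p (-0.30 to 0.020). The difference of VSD against NC between the fluids was -0.015 for miR-200b-3p with library size.

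Between NC sources, miR-200c-3p in amniotic fluid against serum was 1.84 with library size, 0.24 with DESeq2, 0.024 with no filter and -0.22 to 0.13 with 1 sample left out. Against myocardium miR-200b-3p was 0.74 with library size, 0.49 with the replicate block, 0.98 with limma and -0.62 to 0.40, and miR-200c-3p 0.36, 0.56, 1.31 and -1.001 to 0.35. In myocardium against serum miR-200a-3p was -0.26 with limma and -0.17 to 1.54, and miR-200c-3p -0.87 with the replicate block, -1.53 with limma and -0.38 to 0.83.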
